A study of Homo sapiens with 15 samples.

Results

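The transcripts described here are those of 9 cytosolic kinases known as clients of the chaperone HSP90: AKT1, AKT2, BRAF, ARAF, CDK4, CDK6, PDPK1, STK11 and RIPK1. They were chosen by name, and every probe set annotated to exactly 1 of these symbols, current or former, was taken. That gave 27 of the 54613 probe sets that are not controls, and 7 of the 9 genes, among 19775 genes in all. BRAF and RIPK1 were not analysed here. AKT1 and CDK4 had 1 probe set each, ARAF 2, STK11 3, PDPK1 6, and AKT2 and CDK6 7 each. The brightest probe set of a gene, by its mean over all arrays, stands for the gene, and the others are given beside it.

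HSP90 and its co-chaperone CDC37 hold newly made and unstable kinases in a form that can become active. When a drug such as geldanamycin occupies the ATP pocket of HSP90, client kinase proteins are typically ubiquitinated and degraded by the proteasome. The arrays measure RNA, so they show the transcripts of these kinases and say nothing of their protein.

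The cells were A549, a human lung carcinoma line that carries an inactivating mutation of STK11, and a single line in culture is the whole model. There were 5 groups with 3 arrays in each. At 24 h, cells given 40 nM geldanamycin were set beside vehicle cells, and at 48 h there were vehicle cells and cells given 10 nM or 40 nM of the drug. The labels call 40 nM the IC50 and 10 nM the IC20, give the vehicle as DMSO at 0.4%, and say that cells attached for 24 h before treatment. Values are log2 RMA values, on which a difference of 1 is a doubling.

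Vehicle arrays averaged 5.52 over all their probe sets at 48 h but 5.13 at 24 h, so a level at 48 h beside a level at 24 h may hold a step between the scales, and no level was tested across the times. The 10 nM arrays stood apart in their control probe sets: those for poly-A spike transcripts averaged 3.37 ± 0.04 at 10 nM, against 5.93 ± 0.06 with vehicle at 48 h (SD, n = 3 arrays each). On the same arrays the 3' minus 5' difference of ACTB was 2.68 ± 0.03 at 10 nM and 0.35 ± 0.06 with vehicle, while that of GAPDH was 0.13 ± 0.004 and 0.15 ± 0.03. Their part in the 10 nM results below was not tested. Of the epithelial markers, 4 of 6 lay above the dimmest 40% of genes, with EPCAM and CLDN4 not above it. Of the measured alveolar type 2 markers, 4 of 7 lay above it, with SFTPD, LAMP3 and SLC34A2 not. Of the other markers, 0 of 4 leukocyte, 1 of 6 endothelial and 2 of 6 fibroblast ones lay above it. In bulk RNA, fewer cells of a type and less RNA per cell cannot be told apart.

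The client transcripts did not move as a block. CDK4 was lower with geldanamycin in each comparison with vehicle, CDK6 was higher at 40 nM for 24 h and lower at 10 nM for 48 h, and the brightest probe sets of AKT2 and STK11 changed in opposite directions at 48 h. PDPK1 did not pass in any of the 5 comparisons. After 40 nM for 24 h, 3 of the 7 genes passed (limma, adjusted p below 0.05 over all genes), 2 higher and 1 lower, where 31.5% of all genes passed (14.8% higher and 16.7% lower). At 10 nM for 48 h, 4 of 7 passed, 1 higher and 3 lower, where 26.3% of all genes did (14.4% higher and 11.9% lower). At 40 nM for 48 h, 4 of 7 passed, 2 higher and 2 lower, where 21.3% of all genes did (10.5% higher and 10.7% lower). Groups did not overlap for 3, 5 and 6 of the 7 in these comparisons, beside 37.6%, 40.2% and 38.8% of all genes. The median log2 difference over the 7 genes was -0.03, -0.08 and 0.04 in these comparisons, beside -0.007, 0.004 and -0.016 over all genes. The comparisons at 48 h share their vehicle arrays. The shares over all genes include the dimmest 40% of genes, while the brightest probe sets of all 7 members lay above these. Shares among genes of like brightness are not given here, for the members or for the lists below. The part of brightness in these shares was not tested.

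**Figure D1:**
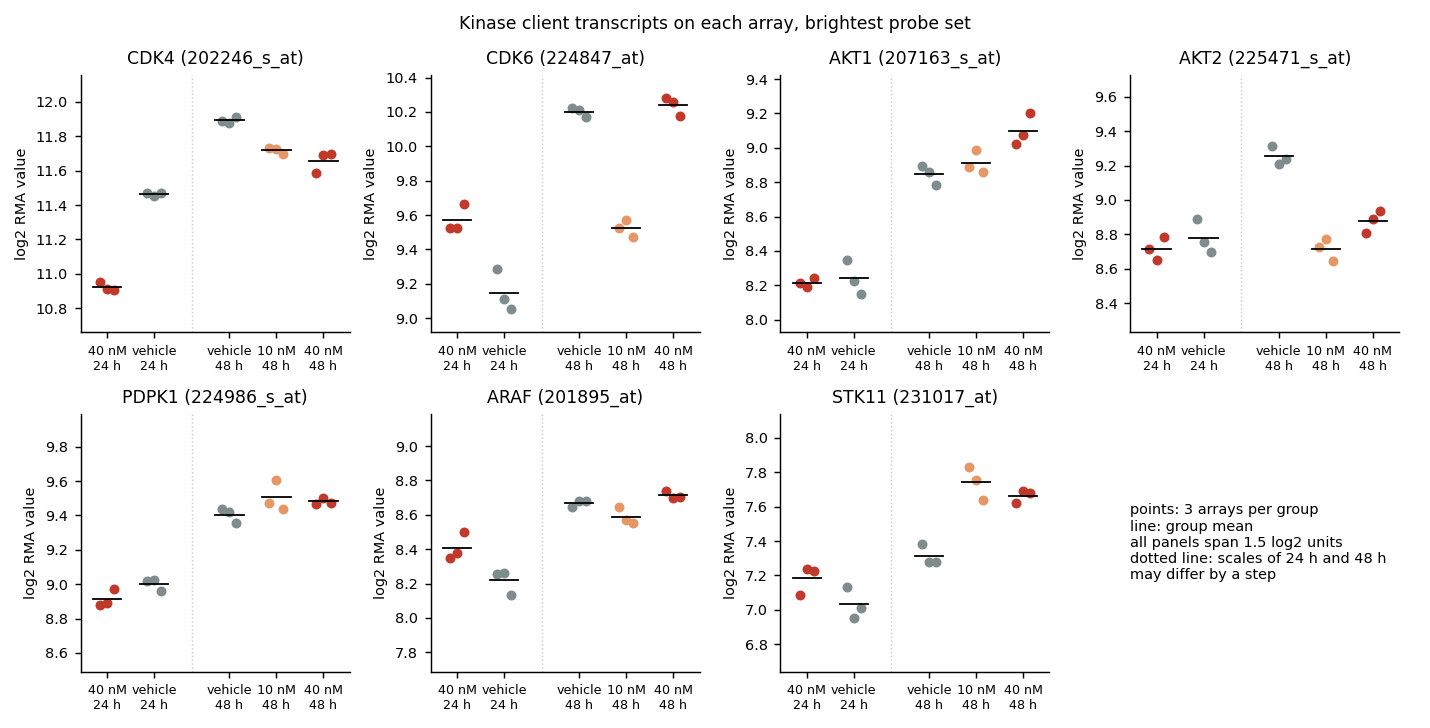
Log2 RMA value of the brightest probe set of each kinase transcript (vertical axis) on each of the 15 arrays, by group (horizontal axis), with points for arrays and a line for the group mean. CDK4 lies lower in treated than in vehicle cells at each time, and CDK6 at 10 nM for 48 h (mean 9.52) lies apart from the other groups of that time.

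CDK4 and CDK6 are the kinases that bind D-type cyclins and phosphorylate the retinoblastoma protein in G1. CDK4 folds through HSP90 and CDC37 and is a classic strong client. CDK4 had log2 values of 10.95, 10.91 and 10.91 after 40 nM for 24 h, against 11.47, 11.45 and 11.47 with vehicle. The arrays of a group lay within 0.1 of each other and the groups did not overlap. CDK4 fell by 0.54 ± 0.05 (SE of the limma fit, n = 3 arrays each, adjusted p = 9.13e-07), or 1.45-fold, a size larger than that of 88.8% of all genes in this comparison.

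At 48 h the CDK4 values were 11.89, 11.87 and 11.91 with vehicle, 11.73, 11.73 and 11.70 at 10 nM, and 11.59, 11.69 and 11.70 at 40 nM. Both doses lay below every vehicle array, and the doses overlapped. CDK4 fell by 0.17 ± 0.05 at 10 nM (limma adjusted p = 0.016) and by 0.23 ± 0.05 at 40 nM (limma adjusted p = 0.0030). The difference of 40 nM from 10 nM was -0.06 (95% interval -0.16 to 0.05, limma adjusted p = 0.46). The fall at 10 nM was not called when p-values were adjusted over all probe sets (0.051), nor without vehicle replicate 3 at 48 h (adjusted p = 0.062).

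CDK6 moved in another way. Its values were 9.52, 9.53 and 9.67 after 40 nM for 24 h, against 9.28, 9.11 and 9.05 with vehicle. Every treated array lay above every vehicle array. CDK6 rose by 0.42 ± 0.07 (limma adjusted p = 1.93e-04), or 1.34-fold, at the time when CDK4 was lower.

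At 48 h CDK6 stood at 10.22, 10.21 and 10.17 with vehicle, at 9.53, 9.57 and 9.47 with 10 nM, and at 10.28, 10.26 and 10.18 with 40 nM. The 10 nM arrays lay below all the others of that time, and the 40 nM and vehicle arrays overlapped. CDK6 fell by 0.68 ± 0.07 at 10 nM (limma adjusted p = 3.78e-06), or 1.60-fold. At 40 nM it differed from vehicle by 0.04 (95% interval -0.11 to 0.18, limma adjusted p = 0.80). Set against 10 nM directly, 40 nM was higher by 0.72 ± 0.07 (limma adjusted p = 2.77e-06). CDK6 was the single gene of the 7 that passed between the doses, where 26.4% of all genes passed (11.9% higher). The doses did not overlap for 4 of the 7, beside 39.9% of all genes.

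The other bright probe sets of CDK6 gave the same pattern. On 224848_at the values were 8.49, 8.51 and 8.72 after 40 nM for 24 h, against 8.11, 8.21 and 8.06 with vehicle. At 48 h this probe set read 8.66, 8.65 and 8.75 with vehicle, 7.83, 7.87 and 7.85 at 10 nM, and 8.78, 8.84 and 8.78 at 40 nM. On 224851_at CDK6 rose by 0.55 ± 0.12 at 24 h (limma adjusted p = 0.0045 over all probe sets) and fell by 0.65 ± 0.12 at 10 nM (adjusted p = 0.0014). The 3 brightest of the 7 probe sets rose at 24 h, and 4 of 7 fell at 10 nM, among them 243000_at (-0.65 ± 0.13, limma adjusted p = 0.0018 over all probe sets). The remaining probe sets, with means between 3.21 and 5.30, did not pass in these comparisons, and 0 of 7 passed at 40 nM for 48 h. CDK6 was called at 24 h, at 10 nM and between the doses under every alternative that was run. With its 7 probe sets averaged it was at 0.24 at 24 h and at 0.43 between the doses. Beside the fall at 10 nM, the control probe sets described above moved too.

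**Figure D2:**
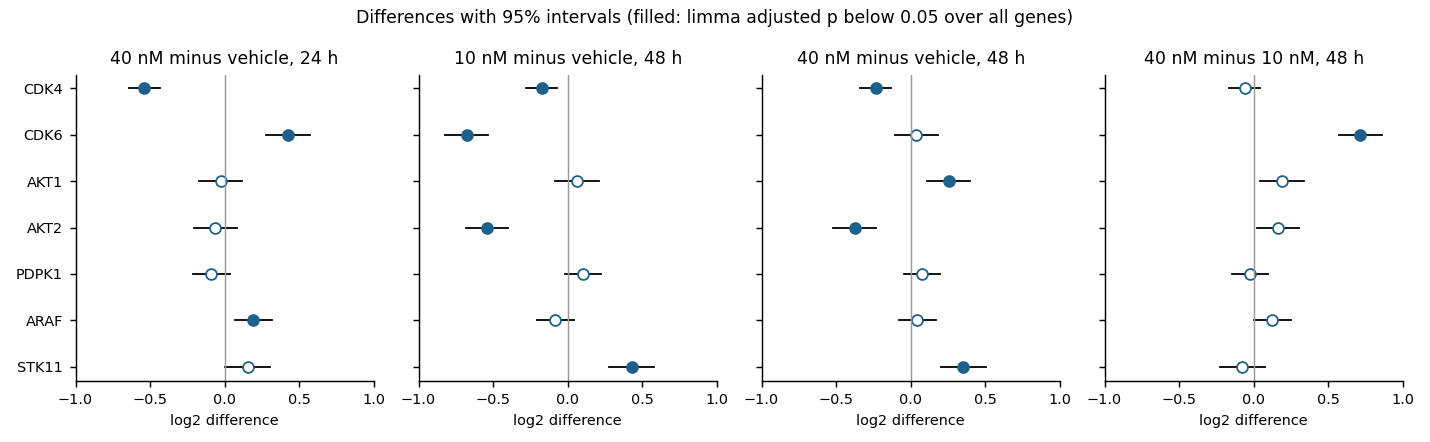
Log2 difference of the brightest probe set of each kinase transcript (horizontal axis) in 4 comparisons, with 95% intervals from the limma fit and filled points where the adjusted p over all genes was below 0.05. CDK6 lies at 0.42, -0.68 and 0.04 in the comparisons with vehicle, while CDK4 lies below 0 in each.

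The promoters of this unlike pair are shown because CDK4 and CDK6 serve the same step of the cell cycle and their transcripts did not move together. Each is a window of 300 bases around a transcript start, from RefSeq on GRCh38.p14, minus strand, written 5′ to 3′. Capitals mark matches, on either strand, to the GC box GGGCGG, the E-box CACGTG that MYC and related factors bind, and the antioxidant response element core TGACNNNGC.
CDK4 chr12:57752261-57752560: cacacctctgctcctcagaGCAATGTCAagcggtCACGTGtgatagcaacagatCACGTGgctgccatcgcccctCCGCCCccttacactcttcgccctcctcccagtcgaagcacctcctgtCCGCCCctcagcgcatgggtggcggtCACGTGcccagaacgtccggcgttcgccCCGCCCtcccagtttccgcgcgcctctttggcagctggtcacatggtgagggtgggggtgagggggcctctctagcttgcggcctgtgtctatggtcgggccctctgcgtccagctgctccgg
CDK6 chr7:92836524-92836823: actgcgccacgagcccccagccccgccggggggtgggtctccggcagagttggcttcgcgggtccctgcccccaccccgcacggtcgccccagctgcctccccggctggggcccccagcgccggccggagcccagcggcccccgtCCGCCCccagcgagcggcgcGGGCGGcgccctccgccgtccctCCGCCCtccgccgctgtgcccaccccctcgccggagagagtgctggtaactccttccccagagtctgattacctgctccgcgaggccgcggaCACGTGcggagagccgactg
The CDK4 window held 3 E-boxes and the CDK6 window 1, and 7.26% of 35116 promoters of this length hold at least 1. Each window held 3 GC boxes, which 45.0% of the promoters hold. The antioxidant core had 1 match in CDK4 and 0 in CDK6, beside 13.3% of promoters with a match. The heat shock element cores GAANNTTC and TTCNNGAA had no match in either window and are held by 6.77% and 7.74% of promoters. In the window of another CDK6 start, chr7:92833910-92834209, none of these letters were found. No binding was measured, and the matches are a description of the letters.

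PDPK1, AKT1 and AKT2 form the core of PI3K signalling: the kinase encoded by PDPK1 phosphorylates the activation loop of AKT, and AKT promotes survival, growth and glucose uptake. PDPK1 had values of 8.88, 8.89 and 8.97 after 40 nM for 24 h, against 9.02, 9.02 and 8.96 with vehicle. At 48 h they were 9.44, 9.42 and 9.35 with vehicle, 9.47, 9.60 and 9.44 at 10 nM, and 9.47, 9.50 and 9.47 at 40 nM. Treated and vehicle arrays overlapped at 24 h and at 10 nM, and did not at 40 nM for 48 h. The differences from vehicle were -0.09 (95% interval -0.21 to 0.03) at 24 h, 0.10 (-0.02 to 0.22) at 10 nM and 0.08 (-0.05 to 0.20) at 40 nM for 48 h. None of its 6 probe sets passed in any comparison, with differences from vehicle between -0.25 and 0.24. PDPK2P is a pseudogene copy of PDPK1, and whether these probe sets also read its RNA was not tested.

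AKT1 had values of 8.21, 8.19 and 8.24 after 40 nM for 24 h, against 8.35, 8.23 and 8.15 with vehicle. At 48 h it read 8.90, 8.86 and 8.79 with vehicle, 8.89, 8.99 and 8.86 at 10 nM, and 9.02, 9.08 and 9.20 at 40 nM. The 40 nM arrays at 48 h lay above those of vehicle and of 10 nM, while the 10 nM and vehicle arrays overlapped. AKT1 rose by 0.25 ± 0.07 at 40 nM for 48 h (limma adjusted p = 0.015), or 1.19-fold. It did not pass at 24 h (-0.03, 95% interval -0.17 to 0.12) or at 10 nM (0.06, -0.08 to 0.21). The rise at 40 nM was no longer called without vehicle replicate 3 (limma adjusted p = 0.069) or 40 nM replicate 3 (0.075) at 48 h. Between the doses, 40 nM was higher by 0.19 ± 0.07 (limma adjusted p = 0.054), and other scalings called this difference.

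AKT2, on its brightest probe set 225471_s_at, had values of 8.72, 8.65 and 8.78 after 40 nM for 24 h, against 8.89, 8.75 and 8.70 with vehicle. At 48 h the values were 9.31, 9.21 and 9.24 with vehicle, 8.73, 8.77 and 8.64 at 10 nM, and 8.81, 8.89 and 8.94 at 40 nM. Both doses lay below vehicle at 48 h without overlap, and the groups at 24 h overlapped. On this probe set AKT2 fell by 0.54 ± 0.07 at 10 nM (limma adjusted p = 2.58e-05) and by 0.38 ± 0.07 at 40 nM (adjusted p = 8.71e-04). At 24 h the difference was -0.06 (95% interval -0.20 to 0.08, adjusted p = 0.55).

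None of the other 6 probe sets of AKT2 passed at either dose at 48 h. The next brightest, 226156_at, had 7.74, 7.55 and 7.59 with vehicle, 7.70, 7.72 and 7.45 at 10 nM, and 7.56, 7.71 and 7.59 at 40 nM. These groups overlapped, with differences of -0.004 ± 0.09 at 10 nM and -0.01 ± 0.09 at 40 nM (limma adjusted p = 0.99 and 0.98 over all probe sets). Over the 7 probe sets the differences at 10 nM ran from -0.54 to 0.31, and 1 passed; 211453_s_at was at -0.32 (adjusted p = 0.11 over all probe sets). With the mean of the 7 probe sets, AKT2 was at -0.08 at 10 nM (adjusted p = 0.31) and -0.12 at 40 nM (0.14), so the call rests on 225471_s_at. At 24 h the dim probe set 203808_at fell by 0.26 ± 0.09 (limma adjusted p = 0.047 over all probe sets), while 226156_at was at 0.25 ± 0.09 (0.061). What each probe set binds was not analysed here.

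**Figure D3:**
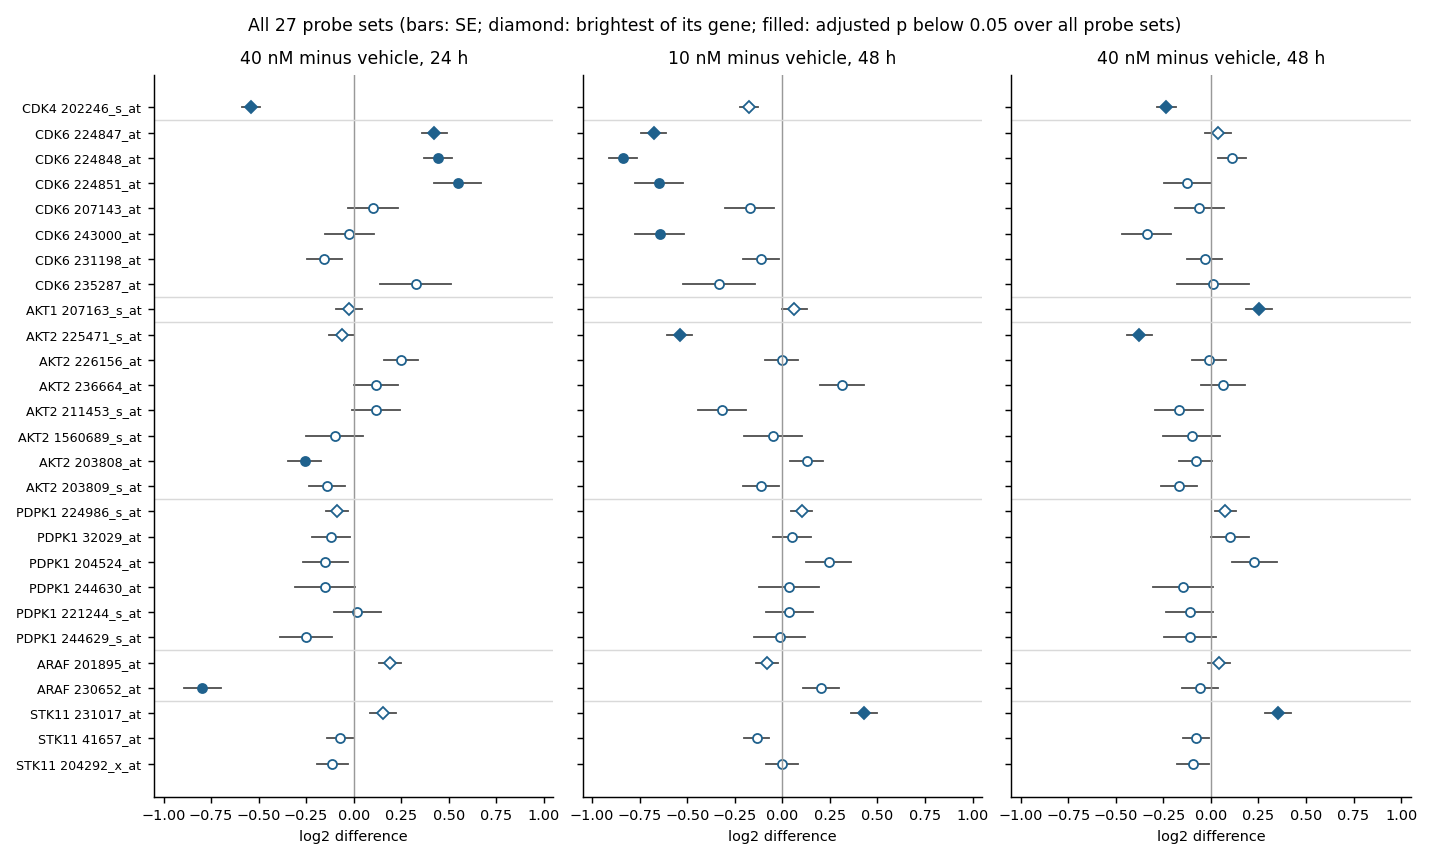
Log2 difference from vehicle (horizontal axis, bars are SE) for each of the 27 probe sets, grouped by gene and ordered by brightness down each group, in 3 comparisons. Filled points had an adjusted p below 0.05 over all probe sets. The bright probe sets of CDK6 lie together, while those of AKT2, ARAF and STK11 spread on both sides of 0.

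Over all 27 probe sets, 6 passed after 40 nM for 24 h, 3 higher and 3 lower, where 21.1% of all probe sets passed. At 48 h, 6 passed at 10 nM, 1 higher and 5 lower, where 19.1% of all did, and 4 at 40 nM, 2 higher and 2 lower, where 12.5% did. Between the doses 3 passed, all of CDK6 and higher at 40 nM, where 18.7% of all probe sets passed. The difference of effects passed for 4, where 9.57% did. Of the 27, 10 lay in the dimmest 40% of the gene scale, below a mean log2 of 5.10, and the brightest probe sets of all 7 genes lay above it.

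ARAF encodes a RAF kinase, which passes signals from RAS to MEK and ERK. Its brightest probe set, 201895_at, had 8.35, 8.38 and 8.50 after 40 nM for 24 h, against 8.25, 8.26 and 8.14 with vehicle. The groups did not overlap, and ARAF rose by 0.19 ± 0.06 on this probe set (limma adjusted p = 0.019). Its other probe set, 230652_at, had 5.45, 5.21 and 5.51 at 40 nM, against 6.37, 6.13 and 6.05 with vehicle, and fell by 0.80 ± 0.10 (limma adjusted p = 1.82e-05 over all probe sets). The 2 probe sets of ARAF thus gave opposite directions at 24 h, and the mean of both was at -0.30 (adjusted p = 0.0026). The rise was also not called in a fit to these 6 arrays alone (adjusted p = 0.15), without replicate 3 of vehicle (0.075) or of 40 nM (0.080), or with p-values adjusted over all probe sets.

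At 48 h ARAF had 8.65, 8.68 and 8.68 with vehicle, 8.64, 8.57 and 8.55 at 10 nM, and 8.74, 8.70 and 8.70 at 40 nM on 201895_at. All 3 groups lay within 0.2 of each other. The differences from vehicle were -0.08 (95% interval -0.21 to 0.04) at 10 nM and 0.04 (-0.08 to 0.17) at 40 nM, and neither passed. The groups did not overlap in either comparison.

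STK11 encodes LKB1, the kinase that activates AMPK and its relatives. On its brightest probe set, 231017_at, it had 7.09, 7.24 and 7.23 after 40 nM for 24 h, against 7.14, 6.95 and 7.01 with vehicle, and these groups overlapped. The difference of 0.15 ± 0.07 did not pass (limma adjusted p = 0.12). At 48 h the values were 7.38, 7.28 and 7.28 with vehicle, 7.83, 7.75 and 7.64 at 10 nM, and 7.62, 7.69 and 7.68 at 40 nM. Both doses lay above vehicle and overlapped with each other. STK11 rose by 0.43 ± 0.07 at 10 nM (limma adjusted p = 3.12e-04) and by 0.35 ± 0.07 at 40 nM (adjusted p = 0.0020), and 40 nM differed from 10 nM by -0.08 (95% interval -0.23 to 0.07).

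The other STK11 probe sets did not follow. On 41657_at the values were 7.44, 7.34 and 7.46 with vehicle, 7.21, 7.31 and 7.31 at 10 nM, and 7.34, 7.28 and 7.39 at 40 nM. The 10 nM arrays lay below vehicle and the 40 nM arrays overlapped it, with differences of -0.13 ± 0.07 at 10 nM and -0.08 ± 0.07 at 40 nM that did not pass (limma adjusted p = 0.21 and 0.62 over all probe sets). The third, 204292_x_at, was at -0.0003 ± 0.08 and -0.09 ± 0.08. With the mean of its probe sets STK11 was at 0.10 at 10 nM (adjusted p = 0.20) and 0.06 at 40 nM (0.53), so its call too rests on 1 probe set.

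The effect of 40 nM at 48 h was set against that at 24 h as a difference of differences. A constant step between the scales of the times drops out of it. A stretch or compression of 1 scale would not, and this was not tested. The difference of effects passed for 3 of the 7 genes, 1 higher and 2 lower, where 17.3% of all genes passed (9.18% higher and 8.11% lower). CDK4 was higher by 0.31 ± 0.07 in this difference (limma adjusted p = 0.0062), that is, its fall was smaller at 48 h. CDK6 was lower by 0.39 ± 0.10 (adjusted p = 0.012), its rise at 24 h having no counterpart at 48 h. AKT2 was lower by 0.31 ± 0.09 (adjusted p = 0.033) on its brightest probe set. This call was lost with the replicate block (adjusted p = 0.056), with its probe sets averaged (-0.11, adjusted p = 0.41), without _x_at and _s_at probe sets (-0.26, 0.22) and in 8 of the 12 fits that left out 1 array. AKT1 was at 0.28 ± 0.10 (adjusted p = 0.061). On 230652_at ARAF was higher by 0.74 ± 0.14 (adjusted p = 0.0024 over all probe sets), against -0.15 ± 0.08 on its brightest probe set.

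Genes whose pattern over the 15 arrays was most like that of a member were sought for AKT2, CDK4 and CDK6, the members with a called change of at least 0.5. Likeness was the root mean square difference of the log2 values after the vehicle mean of the same time was subtracted. Closest to CDK4 were JPT1 (0.038), SPECC1L (0.045) and RIOX1 (0.0495). JPT1 had differences of -0.57 after 40 nM for 24 h, -0.16 at 10 nM and -0.24 at 40 nM for 48 h, beside -0.54, -0.17 and -0.23 for CDK4. Closest to CDK6 were TBC1D5 (0.076), TM9SF2 (0.092) and CCDC92 (0.093). TBC1D5 had differences of 0.34, -0.64 and -0.001 in the same order. Closest to AKT2 were GTPBP8 (0.054), MRTFA (0.0599) and SMU1 (0.0605). The AKT2 pattern is that of 225471_s_at alone, which the other AKT2 probe sets did not follow at 48 h.

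Cell cycle genes around CDK4, CDK6 and the retinoblastoma protein also moved at several points. Of 17 measured genes of the CDK4/6 and RB list, 4 rose and 6 fell after 40 nM for 24 h, with a median of -0.09. At 48 h, 5 rose and 2 fell at 10 nM, and 6 rose and 1 fell at 40 nM, with medians of 0.11 and 0.17. These were 58.8%, 41.2% and 41.2% of the list, beside 31.5%, 26.3% and 21.3% of all genes. Here and for the lists below, the shares of all genes include dim genes and are not matched for brightness. Cyclin D3, CCND3, rose by 1.17 ± 0.06 at 24 h, 0.83 ± 0.06 at 10 nM and 0.98 ± 0.06 at 40 nM for 48 h; with its probe sets averaged these were 0.58, 0.36 and 0.44. At 24 h cyclin E2, CCNE2, fell by 1.07 ± 0.10 and CDK2, the kinase that cyclin E binds, by 0.72 ± 0.06 (CDK2 was at -0.44 with its probe sets averaged). At 40 nM for 48 h CCNE2 was instead higher, by 0.56 ± 0.10 (limma adjusted p = 0.0010). CDKN1A, the p21 inhibitor of these kinases, rose by 0.65 ± 0.06 at 24 h, 0.77 ± 0.06 at 10 nM and 1.38 ± 0.06 at 40 nM for 48 h. CCND1, cyclin D1, fell by 0.49 ± 0.06 at 10 nM, a call lost with the mean of its probe sets (-0.13, adjusted p = 0.33). At 40 nM CCND1 was instead higher, by 0.22 ± 0.06 at 24 h and 0.31 ± 0.06 at 48 h (limma adjusted p = 0.011 and 0.0017). CCNE1 rose by 0.38 ± 0.08 at 10 nM and by 0.59 ± 0.08 at 40 nM for 48 h (the latter 0.28 with its probe sets averaged). Between the times, the effect of 40 nM was higher at 48 h for 10 of the 17 and lower for 1, beside 9.18% and 8.11% of all genes.

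Among 21 measured genes of the AKT pathway, 8 rose and 4 fell after 40 nM for 24 h, with a median of 0.13. At 48 h, 3 rose and 7 fell at 10 nM (median -0.02), and 2 rose and 5 fell at 40 nM (median -0.10). The shares called were 57.1%, 47.6% and 33.3%, beside 31.5%, 26.3% and 21.3% of all genes. PIK3R3, a regulatory subunit of PI3K, rose by 1.35 ± 0.11 at 24 h and by 0.40 ± 0.11 at 40 nM for 48 h. FOXO3, a transcription factor that AKT keeps out of the nucleus, fell by 0.56 ± 0.09 at 24 h, and SGK1, a kinase related to AKT, by 0.52 ± 0.07. GSK3B, a kinase that AKT inhibits, fell by 0.89 ± 0.08 at 10 nM. The phosphoinositide phosphatase INPP4B rose by 0.71 ± 0.13 at 10 nM and fell by 0.65 ± 0.13 at 40 nM for 48 h. MAPKAP1, a subunit of the mTOR complex that phosphorylates AKT, fell by 0.53 ± 0.13 and 0.52 ± 0.13 at those doses. With probe sets averaged, PIK3R3 at 24 h was at 0.85, FOXO3 at -0.19, GSK3B at -0.33 and INPP4B at 0.40 at 10 nM and -0.26 at 40 nM, all still called. The calls of MAPKAP1 ended without probe sets ending in _x_at or _s_at (adjusted p = 0.079 and 0.12), and that of PIK3R3 at 48 h with the mean of its probe sets (adjusted p = 0.11) and in 3 of the 6 fits that left out 1 array of these groups.

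Of 11 measured genes of the RAF-MEK-ERK cascade, 5 rose and 1 fell at 24 h, 3 rose and 3 fell at 10 nM, and 4 rose and 1 fell at 40 nM for 48 h. The medians were 0.16, 0.10 and 0.006, and the shares called 54.5%, 54.5% and 45.5%, beside 31.5%, 26.3% and 21.3% of all genes. KSR1, a scaffold that brings RAF to MEK, rose by 0.46 ± 0.06 at 24 h, 1.22 ± 0.06 at 10 nM and 0.26 ± 0.06 at 40 nM for 48 h. MAP2K2, which encodes a MEK, rose by 0.39 ± 0.07 at 24 h and 0.33 ± 0.07 at 40 nM for 48 h, where its relative MAP2K1 rose by 0.32 ± 0.06. At 10 nM MAP2K2 was instead lower, by 0.19 ± 0.07 (limma adjusted p = 0.047). HRAS fell by 0.34 ± 0.08 at 24 h. At 10 nM YWHAZ, an adaptor that binds phosphorylated RAF, fell by 0.86 ± 0.06, and the scaffold SHOC2 fell by 0.31 ± 0.07. With probe sets averaged, KSR1 was at 0.27 at 24 h and 0.35 at 10 nM, and YWHAZ at -0.46. In the same setting, KSR1 (0.08, adjusted p = 0.45) and MAP2K2 (0.18, 0.12) were not called at 40 nM for 48 h.

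**Figure D4:**
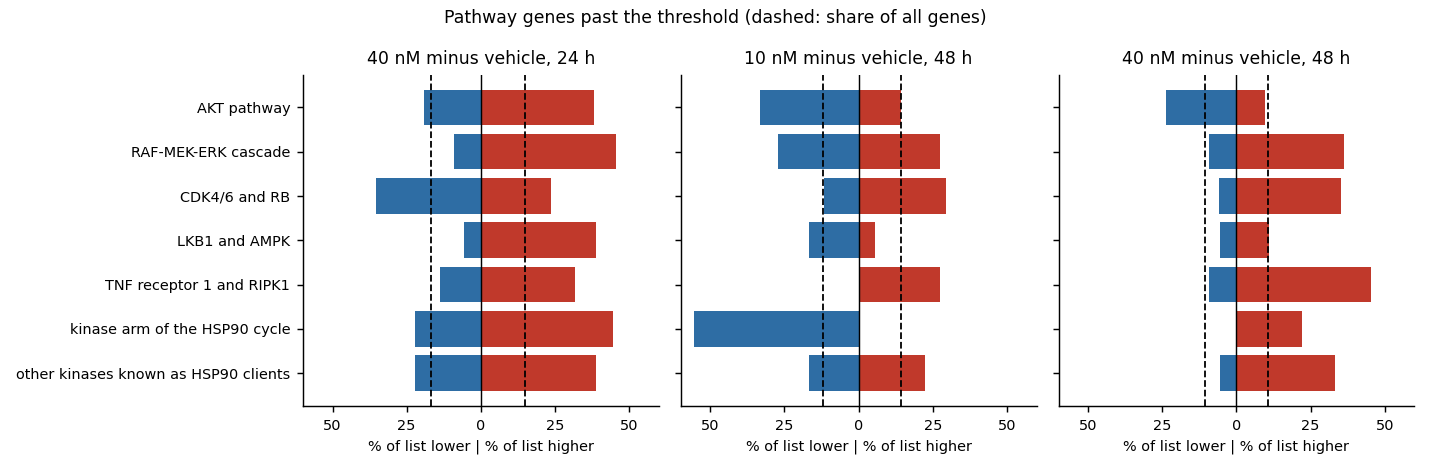
Share of the measured genes of each pathway list that passed higher (red, to the right) or lower (blue, to the left) than vehicle, in percent, in 3 comparisons, with dashed lines at the shares over all genes. In the kinase arm of the HSP90 cycle 4 of 9 genes rose at 24 h, and 5 of 9 fell at 10 nM.

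Genes around LKB1 and AMPK had 7 rises and 1 fall of 18 at 24 h, 1 and 3 at 10 nM, and 2 and 1 at 40 nM for 48 h, with medians of -0.02, -0.02 and 0.06. These were 44.4%, 22.2% and 16.7% of the list, beside 31.5%, 26.3% and 21.3% of all genes, so at 48 h the list had no larger share than all genes. The AMPK relative SIK3 rose by 0.89 ± 0.08, the AMPK catalytic subunit PRKAA2 by 0.78 ± 0.14 and MARK4 by 0.65 ± 0.07 at 24 h. At 10 nM NUAK1 fell by 0.44 ± 0.08, STRADB, a pseudokinase that binds LKB1, by 0.36 ± 0.07, and SIK1 by 0.24 ± 0.05. Without _x_at and _s_at probe sets SIK1 at 10 nM was instead at 0.31 (adjusted p = 0.023), and with the mean of its probe sets at 0.04 (adjusted p = 0.77). After 40 nM for 24 h STRADB and SIK1 were higher, by 0.23 ± 0.07 and 0.41 ± 0.05 (limma adjusted p = 0.031 and 1.94e-05). At 40 nM for 48 h PRKAA2 rose by 0.48 ± 0.14 and PRKAB1 by 0.26 ± 0.06, and PRKAG1 fell by 0.17 ± 0.05. PRKAG1 was instead higher at 10 nM, by 0.23 ± 0.05 (limma adjusted p = 0.0021). With probe sets averaged, SIK3 was at 0.56 and PRKAA2 at 0.47 at 24 h, and PRKAA2 at 0.30 at 40 nM for 48 h. The calls of PRKAA2 and PRKAG1 at 40 nM for 48 h were each lost in 4 of the 6 fits that left out 1 array of these groups.

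Of 22 measured genes around TNF receptor 1, the pathway in which RIPK1 acts, 7 rose and 3 fell at 24 h, 6 rose and 0 fell at 10 nM, and 10 rose and 2 fell at 40 nM for 48 h. The medians were 0.11, 0.12 and 0.07. The shares called were 45.5%, 27.3% and 54.5%, beside 31.5%, 26.3% and 21.3% of all genes, so the share at 10 nM was near that of all genes. TNFAIP3, the ubiquitin-editing protein A20, rose by 0.92 ± 0.09 at 24 h, 1.85 ± 0.09 at 10 nM and 2.14 ± 0.09 at 40 nM for 48 h. BIRC2, a ubiquitin ligase of RIPK1, rose by 0.54 ± 0.07 at 10 nM and 0.58 ± 0.07 at 40 nM for 48 h. At 24 h CASP8 rose by 0.59 ± 0.10 and RBCK1, a subunit of the linear ubiquitin ligase, fell by 0.71 ± 0.06. Both also passed at 40 nM for 48 h, at 0.50 ± 0.10 and -0.37 ± 0.06. At 48 h the deubiquitinase CYLD rose by 0.47 ± 0.10 at 10 nM and 0.43 ± 0.10 at 40 nM. TRAF5 fell by 0.52 ± 0.09 at 40 nM for 48 h (-0.33 with its probe sets averaged). CASP8 at 24 h was not called without probe sets ending in _x_at or _s_at (0.15, adjusted p = 0.37). With probe sets averaged CASP8 at 24 h was at 0.33, and RBCK1 at 24 h was not called (-0.13, adjusted p = 0.084).

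The chaperone genes that serve kinase clients had 4 rises and 2 falls of 9 at 24 h, 0 and 5 at 10 nM, and 2 and 0 at 40 nM for 48 h, with medians of 0.22, -0.30 and 0.08. These were 66.7%, 55.6% and 22.2% of the list, beside 31.5%, 26.3% and 21.3% of all genes. CDC37, the kinase-specific co-chaperone, rose by 0.37 ± 0.07 at 24 h and by 0.27 ± 0.07 at 40 nM for 48 h, and was at -0.37 ± 0.07 at 10 nM (limma adjusted p = 0.0011). HSP90AB1 rose by 0.53 ± 0.05 and the co-chaperone STIP1 by 0.48 ± 0.07 at 24 h. At 10 nM both fell, by 0.38 ± 0.05 and 0.41 ± 0.07, as did PPP5C, the phosphatase of CDC37, by 0.74 ± 0.11. STUB1, a ubiquitin ligase for chaperone clients, rose by 0.17 ± 0.05 at 40 nM for 48 h. At 10 nM, HSP90AB1 was not called with the mean of its probe sets (-0.009, adjusted p = 0.95), nor PPP5C without _x_at and _s_at ones (-0.15, 0.52). With probe sets averaged, PPP5C was at -0.44 and STIP1 at -0.80. At 40 nM for 48 h, the calls of CDC37 and STUB1 were lost in 2 and 4 of the 6 fits that left out 1 array of these groups.

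Other kinases known as HSP90 clients had 7 rises and 4 falls of 18 at 24 h, 4 and 3 at 10 nM, and 6 and 1 at 40 nM for 48 h, with medians of 0.20, 0.02 and 0.07. These were 61.1%, 38.9% and 38.9% of the list, beside 31.5%, 26.3% and 21.3% of all genes. The mitotic kinase PLK1 fell by 1.01 ± 0.08 and the checkpoint kinase CHEK1 by 0.92 ± 0.09 at 24 h. MAP3K14, the NF-kB inducing kinase, rose by 0.82 ± 0.07 at 24 h, 0.56 ± 0.07 at 10 nM and 0.46 ± 0.07 at 40 nM for 48 h. At 10 nM LATS2 of the Hippo pathway rose by 0.54 ± 0.07 (0.28 with its probe sets averaged) and CDK9 fell by 0.49 ± 0.08, a call lost with the mean of its probe sets (-0.12, adjusted p = 0.35). LATS2 also passed at 40 nM for 24 h, higher by 0.52 ± 0.07. RIPK2, a relative of RIPK1, rose by 0.67 ± 0.07 and IKBKE by 0.49 ± 0.08 at 40 nM for 48 h. RIPK2 also rose by 0.40 ± 0.07 at 24 h, and IKBKE by 0.47 ± 0.08 at 10 nM. CHUK and IKBKB stand on this list and on that of TNF receptor 1.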

How the data were processed

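Affymetrix HG-U133 Plus 2.0 arrays measured RNA of 15 A549 samples. The values are log2 expression values that the authors deposited, for which the submitters' processing notes name RMA and Expression Console (version not given in the sources used here). Arrays have no read depth, and their number limits the precision.

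Of 54675 probe sets, 62 are controls, 41091 have 1 symbol, 1801 several and 11721 none here. For 41037 the symbol was looked up by gene ID in RefSeq. PDK1, a former name of PDPK1, is here the symbol of another gene ID, and its 3 probe sets were left out.

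Group means were fitted with limma 3.58.1 in R 4.3.3 to the brightest single-symbol probe set of each of 19775 genes, with 10 residual degrees of freedom, and to all probe sets in a fit of their own. P-values are two-sided, adjusted by Benjamini-Hochberg over all genes (or all probe sets), with a threshold of 0.05. The code was tested on simulated data. The labels do not say that replicates came from separate cultures, so p-values cover array-to-array spread alone, which may be technical. Deviations of same-numbered arrays correlated with no common sign (r from -0.41 to 0.29).

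Members and lists were chosen with earlier results of these data known. Named are every member, up to 3 passing genes of each list with the largest change per comparison with vehicle, and the 3 genes most like a member with a called change of 0.5 or more. A named list gene can also have passed in comparisons for which no value of it is given.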

Additional observations from a re-analysis of the deposited data

Results flagged for a closer look

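The effect of 40 nM geldanamycin differed between 48 h and 24 h for 3 of the 7 kinase transcripts by the test of the difference itself (limma). Whether the scale of values was stretched or compressed at 1 of the times was not tested. CDK4 had a difference of 0.31 (adjusted p = 0.0062), with changes from vehicle of -0.23 at 48 h and -0.54 at 24 h. CDK6 had a difference of -0.39 (adjusted p = 0.012), with changes of 0.04 at 48 h and 0.42 at 24 h. AKT2 had a difference of -0.31 (adjusted p = 0.033), with changes of -0.38 at 48 h and -0.06 at 24 h. The AKT2 difference was not called with the replicate block (adjusted p = 0.056), which left 2 of the 3, nor with its probe sets averaged (-0.11, adjusted p = 0.41).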

How the results depend on the processing

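The 7 transcripts were refitted under 11 other settings and with each of the 15 arrays left out, and 560 of 613 values stayed on the same side of the threshold. In the refits that measured them, all calls of CDK4 and CDK6 held but that of CDK4 at 10 nM without vehicle replicate 3. The same CDK4 call was also lost with limma p-values adjusted over all probe sets (0.051). Leaving out the 10 nM arrays was chosen after seeing the data; it left 3, 4 and 3 transcripts called at 40 nM for 24 h, at 40 nM for 48 h and in the difference of these effects.

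With probe sets averaged per gene, 2 transcripts were called at 10 nM, 2 at 40 nM for 48 h and 2 between the doses; ARAF reversed at 24 h (-0.30) and in the difference of effects (0.29), and SIK1 at 10 nM (0.035). Without _x_at and _s_at probe sets, AKT1 and CDK4 were not measured, 2, 1 and 1 transcripts were called at 10 nM, at 40 nM for 48 h and in the difference of effects, and AKT2 reversed at 24 h (0.25) and SIK1 at 10 nM (0.31). Between the doses, 4 were called with cyclic loess, 3 with array medians subtracted, the dimmest 40% left out or array weights, and 2 with the floor or with a trend and robust prior. Array weights called 5 transcripts at 24 h and 5 in the difference of effects, 8036 genes at 10 nM and 5851 in the difference of effects. The cause was not tested.

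With 1 array left out, 2 to 4 transcripts were called at 24 h, 3 to 4 at 10 nM, 3 to 4 at 40 nM for 48 h, 1 to 2 between the doses and 2 to 3 in the difference of effects. The last lost AKT2 in 8 of 12 such fits, whose values ran from -0.37 to -0.27. With the replicate block, 3, 4, 4, 1 and 2 were called in this order, and AKT2 left the difference of effects (adjusted p = 0.056). Of 623 list counts, 552 stayed within 1.5 times.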
